A study of Oryza sativa Japonica Group and Oryza sativa Indica Group with 10 samples.

Results

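The KNOX homeobox genes of the OSH series in rice were examined in young panicles: OSH1, OSH3, OSH43 and OSH71, which belong to class I of the family, and OSH45, which belongs to class II. A probe set was taken when the array annotation paired it with exactly 1 gene and the symbol or a synonym of that gene was 1 of these 5 names. This gave 7 probe sets of 5 genes, of 22436 probe sets of 17905 genes that are paired with exactly 1 gene and of 57258 rice probe sets in all. OSH1 and OSH43 have 2 probe sets each, and OSH3, OSH71 and OSH45 have 1 each. All 7 probe sets are described, and none was removed by a filter on low signals.

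The study hybridized labeled cRNA of young panicles, 2 cm long, to the Affymetrix GeneChip rice array, with 5 biological replicates of the japonica cultivar Nipponbare and 5 of the indica cultivar 93-11. Both are inbred cultivars, no treatment was applied and no transgene was used. The replicate number is that of the labels, and with 5 arrays a cultivar the number of arrays limits the precision of every value. Each panicle sample is bulk tissue, so a smaller share of meristem cells and less mRNA per cell cannot be told apart. Most probes of this array were designed on japonica transcripts, so in any probe set that is lower in 93-11 a lower transcript level and a poorer match of the 93-11 transcript to the probes cannot be told apart.

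KNOX proteins are homeodomain transcription factors of plants. Class I members are transcribed in shoot and inflorescence meristems, where they keep cells undifferentiated, act through raised cytokinin and lowered gibberellin, and are switched off where a leaf or floral organ starts. Class II members are transcribed more widely, also in differentiating and mature organs. In rice, OSH1 is required to keep the shoot meristem, and the branch and spikelet meristems of a young panicle transcribe it.

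In the gene table used, OSH1, OSH3 and OSH43 lie on chromosome 3, OSH71 on chromosome 5 and OSH45 on chromosome 8. OSH1 and OSH3 are close neighbours, with 1 gene between them. A non-coding RNA gene, LOC112938160, overlaps OSH1 and has no probe set paired with it. A protein-coding gene, LOC4334260, overlaps OSH43 and has 1 probe set paired with it, alone or with other genes. The gene IDs are 4333973 for OSH1, 4333975 for OSH3, 4334261 for OSH43, 4337701 for OSH71 and 4345191 for OSH45. OSH1 has a probe set whose name ends in x_at and a probe set whose name ends in plain at, and OSH43 has an s_at set and a plain at set, and they are called by these endings here. The ending x_at marks sets in which some probes may also bind other transcripts, s_at marks probes shared by several transcripts, and a_at marks probes shared by transcripts of the same gene.

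Signals are given on the linear scale of the deposited values. The arrays had not been brought to a common level, with Nipponbare at a trimmed mean signal of 277 ± 62.4 and 93-11 at 213 ± 18.5 (SD, n = 5; exact permutation test, two-sided, p = 0.0397, adjusted p = 0.198 over 5 array measures). Each difference is therefore given as deposited and again after every array had been scaled to a common trimmed mean. Differences are 93-11 minus Nipponbare on the log2(signal + 16) scale, which understates the change of weak probe sets. They were tested with limma, and a probe set is called when its adjusted p over all 57258 is below 0.05. The median over all probe sets was -0.16 as deposited and 0.03 scaled, and scaling moved the difference of each of the 7 probe sets upward. As deposited 1.66% of all probe sets were called higher in 93-11 and 11.9% lower. Scaled, 7.84% were called higher and 9.21% lower.

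Of the 6 class I probe sets, 3 were called lower in 93-11 and 0 higher as deposited, with a median difference of -0.47. Scaled, 1 of the 6 was called lower, the OSH1 at set, and 2 were called higher, OSH3 and OSH71, with a median of -0.14. The class II probe set, OSH45, was called higher on both scales. Of the 7 probe sets, only the OSH1 at set and OSH45 were called on both scales, in opposite directions.

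**Figure D1:**
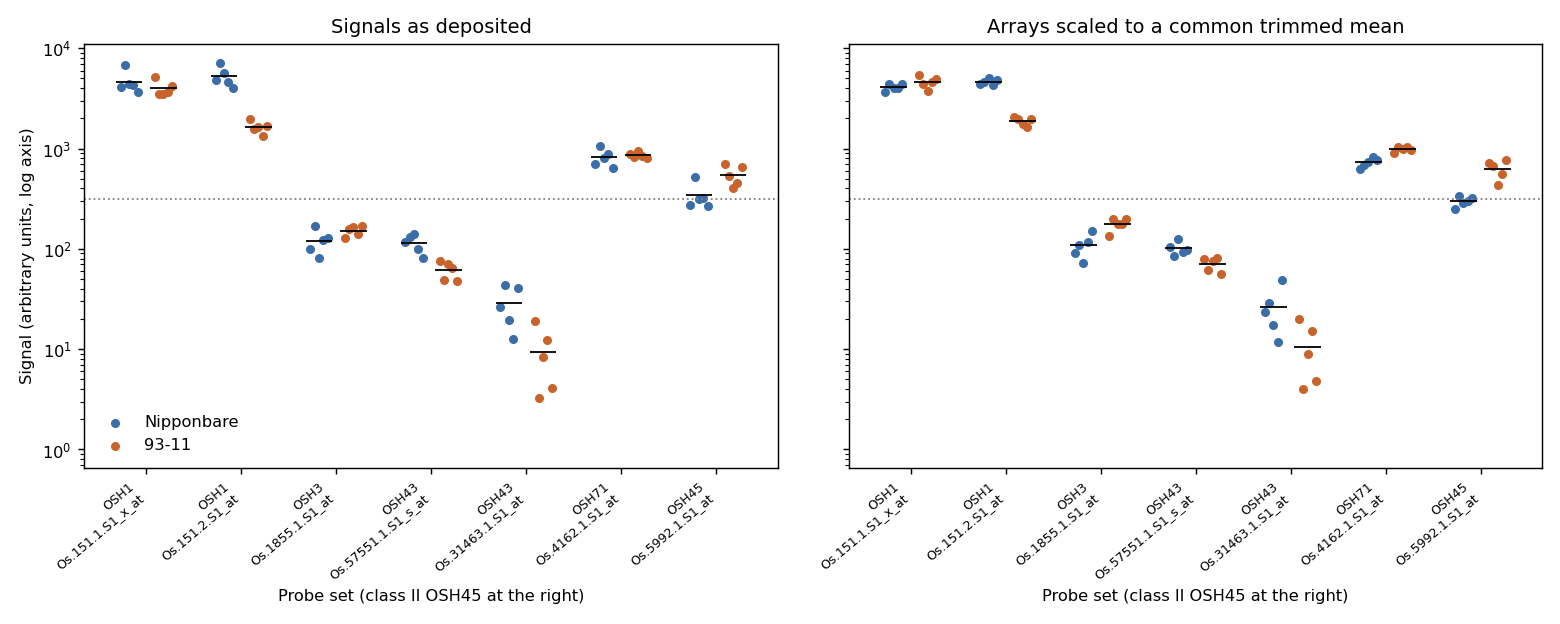
Signal of each of the 7 probe sets on each array (points, log axis) in Nipponbare and 93-11, as deposited on the left and scaled on the right, with the mean of 5 arrays as a bar and log10 signal 2.5 as a dotted line. Of the probe sets, labelled by gene and array ID, the OSH1 at set and the OSH43 s_at set keep the cultivars apart on both scales, while OSH71 and OSH45 part only after scaling.

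OSH1 was measured by 2 strong probe sets that gave different answers. For the at set the deposited signals were 4834, 7093, 5645, 4627 and 4035 in Nipponbare replicates 1 to 5 and 1981, 1558, 1647, 1329 and 1661 in 93-11 replicates 1 to 5. Every 93-11 array was below every Nipponbare array. The means were 5247 ± 1182 and 1635 ± 235 (SD, n = 5), a difference of -1.66 (SE 0.17, 3.15-fold, limma adjusted p = 2.87e-06). Scaled, the signals were 4332 to 5110 in Nipponbare and 1658 to 2064 in 93-11, again without overlap, and the difference was -1.30 (SE 0.08, 2.47-fold, limma adjusted p = 4.38e-08). With 16 added this was the largest difference among the 7 probe sets on both scales, while with 1 added the weak OSH43 at set was close to it as deposited (-1.61 against -1.67). With each array left out in turn it lay between -1.74 and -1.54 as deposited.

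For the other OSH1 probe set, the x_at set, the deposited signals were 4105, 6759, 4420, 4319 and 3687 in Nipponbare and 5143, 3504, 3479, 3662 and 4230 in 93-11. The cultivars overlapped over most of their range, and the highest value was that of Nipponbare replicate 2, the brightest array. The means were 4658 ± 1208 and 4004 ± 705 (SD, n = 5). The difference was -0.20 (SE 0.18, 95% interval -0.59 to 0.19, limma adjusted p = 0.565) as deposited and 0.15 (SE 0.10, 95% interval -0.06 to 0.37, limma adjusted p = 0.360) scaled, so its sign changed with the scale and it was called on neither. With the interval of the scaled difference, a fall as large as that of the at set was outside the range that this probe set allows.

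The ratio of the OSH1 probe sets on the same array is free of the array level. The signal of the x_at set over that of the at set was 0.849, 0.953, 0.783, 0.934 and 0.914 in Nipponbare and 2.60, 2.25, 2.11, 2.76 and 2.55 in 93-11. The mean ratios were 0.887 ± 0.0698 and 2.45 ± 0.264 (SD, n = 5), and the lowest 93-11 ratio was above the highest Nipponbare ratio. On the log2(signal + 16) scale the ratio was higher in 93-11 by 1.46 (SE 0.12, 95% interval 1.20 to 1.71, 2.74-fold, limma adjusted p = 1.63e-06 over 5962 pairs of probe sets that share 1 gene). It was called with each array left out in turn, at 1.41 to 1.51, and on scaled values.

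Unequal pairs were common across the array, so the OSH1 pair is read against them. Of the 5962 pairs, 21.9% were called unequal, and of the 1128 pairs in which both probe sets had a mean log10 signal above 2.5, 19.4% were. A change at least as large as that of OSH1 was found in 78 of these 1128 strong pairs (6.92%), whose median change was 0.128 in size. Among the strong pairs, 342 join an x_at set with a plain at set, as in OSH1, and 74 of these (21.6%) were unequal. In 180 of the 1128 strong pairs, as in OSH1, exactly 1 probe set of the pair was called lower in 93-11 as deposited, and in 131 both were.

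**Figure D2:**
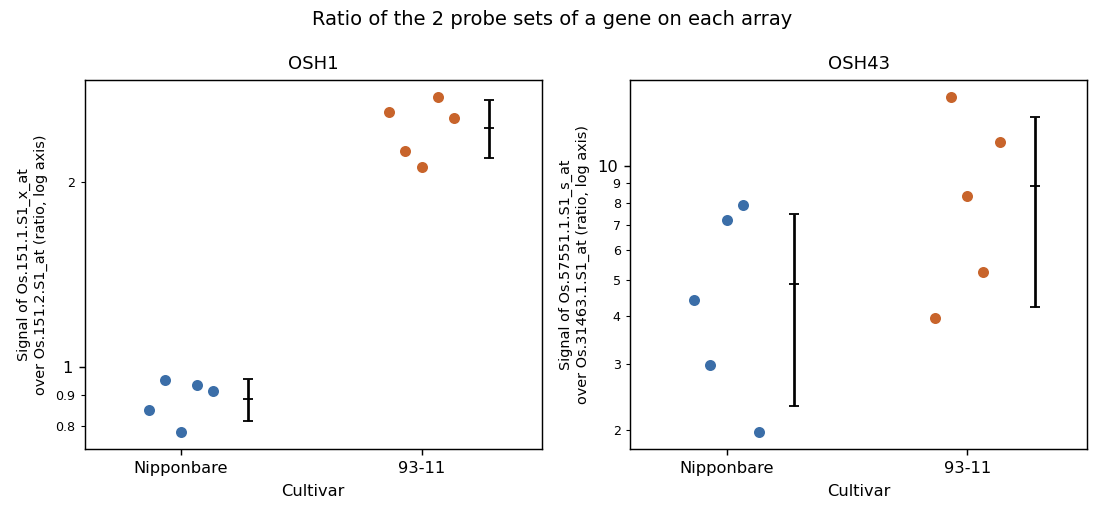
Ratio of the 2 probe sets of OSH1 (left) and of OSH43 (right) on each array (points, log axis) by cultivar, with the mean and SD of 5 arrays in black. The OSH1 ratio is 0.783 to 0.953 in Nipponbare and 2.11 to 2.76 in 93-11, while the OSH43 ratios of the cultivars overlap.

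OSH43, the class I gene on the same chromosome as OSH1 and OSH3, was weak in both cultivars. Its stronger probe set, the s_at set, gave deposited signals of 116, 131, 139, 99.8 and 80.9 in Nipponbare and 75.7, 49.3, 70.4, 64.6 and 47.3 in 93-11. The cultivars did not overlap as deposited, nor scaled, where Nipponbare lay at 85.1 to 126 and 93-11 at 55.8 to 80.6. The means were 113 ± 23.6 and 61.5 ± 12.6 (SD, n = 5). The difference was -0.74 (SE 0.20, limma adjusted p = 0.0239) as deposited and -0.44 (SE 0.15, limma adjusted p = 0.0601) scaled, where it was not called. Without Nipponbare replicate 1 or 3, or 93-11 replicate 2 or 5, the deposited call was lost too (limma adjusted p = 0.0604, 0.0733, 0.0730 and 0.0611).

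The weaker OSH43 probe set, the at set, gave signals of 26.2, 44.0, 19.4, 12.7 and 41.0 in Nipponbare and 19.2, 3.22, 8.43, 12.3 and 4.08 in 93-11. These are among the low signals of the array, and the cultivars overlapped. The difference was -0.79 (SE 0.25, limma adjusted p = 0.0434) as deposited and -0.64 (SE 0.25, limma adjusted p = 0.103) scaled. The deposited call was lost without any of 7 of the 10 arrays, Nipponbare replicates 1, 2 and 5 and 93-11 replicates 2, 3, 4 and 5, with limma adjusted p up to 0.127.

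The OSH43 probe sets differed in the same direction. Their ratio was 1.98 to 7.88 in Nipponbare and 3.95 to 15.3 in 93-11, and its change was 0.06 (SE 0.24, 95% interval -0.47 to 0.58, limma adjusted p = 0.931) as deposited and 0.20 (limma adjusted p = 0.686) scaled. This interval is wide. Within cultivars the weaker set had an SD of 0.90 on log2 of the scaled signals with nothing added, which is not the scale of the fit. With 1 added in place of 16 the change was 0.74 (SE 0.44, limma adjusted p = 0.356), so how far the OSH43 sets differ depends on the constant added to such low signals.

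OSH3, the neighbour of OSH1, was also weak, with a mean log10 signal of 2.07 in Nipponbare and 2.18 in 93-11. Its deposited signals were 100, 170, 80.5, 124 and 127 in Nipponbare and 128, 158, 165, 141 and 168 in 93-11. The cultivars overlapped, with the lowest values in Nipponbare. The difference was 0.33 (SE 0.20, 95% interval -0.09 to 0.75, limma adjusted p = 0.342) as deposited. Scaled, it was 0.65 (SE 0.17, 1.57-fold, limma adjusted p = 0.0187), still with overlap, since Nipponbare replicate 5 at 152 lay above 93-11 replicate 1 at 133. This call was lost without Nipponbare replicate 1 or 93-11 replicate 2, with limma adjusted p up to 0.0518. OSH3 and the OSH1 at set, from neighbouring genes, were thus called in opposite directions on scaled values. The OSH1 x_at set had the sign of OSH3 on this scale, at 0.15, and was not called.

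OSH71, a class I gene that is transcribed in and around meristems, was measured well above the log10 threshold of 2.5. Its deposited signals were 698, 1052, 806, 874 and 645 in Nipponbare and 873, 830, 938, 837 and 814 in 93-11. The 93-11 values lay inside the Nipponbare range, with means of 815 ± 160 and 858 ± 49.2 (SD, n = 5) and a difference of 0.09 (SE 0.15, 95% interval -0.23 to 0.42, limma adjusted p = 0.776). Scaled, the signals were 630, 684, 729, 819 and 773 in Nipponbare and 909, 1039, 1001, 1044 and 960 in 93-11. On this scale the cultivars did not overlap, and OSH71 was higher in 93-11 by 0.44 (SE 0.09, 1.36-fold, limma adjusted p = 0.00233), called with each of the 10 arrays left out. Whether OSH71 differs between the cultivars therefore rests on the array level.

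OSH45, the class II gene, was the member called higher in 93-11 on both scales. Its deposited signals were 276, 521, 316, 324 and 268 in Nipponbare and 697, 537, 409, 449 and 653 in 93-11. Nipponbare replicate 2 was the highest of its cultivar and lay above 93-11 replicates 3 and 4, so the cultivars overlapped. The means were 341 ± 103 and 549 ± 125 (SD, n = 5), a difference of 0.67 (SE 0.20, 1.60-fold, limma adjusted p = 0.0381). Without any of 7 of the 10 arrays, Nipponbare replicates 1, 3, 4 and 5 and 93-11 replicates 1, 2 and 5, the deposited call was lost, with limma adjusted p up to 0.106. Scaled, the signals were 249, 338, 286, 303 and 321 in Nipponbare and 726, 672, 436, 561 and 769 in 93-11. The cultivars then did not overlap, and the difference was 1.02 (SE 0.15, 2.03-fold, limma adjusted p = 1.87e-04), called with every array left out in turn at 0.94 to 1.14.

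Separation of the cultivars was compared with that of all probe sets. As deposited, 2 of the 7 probe sets had no overlap, the OSH1 at set and the OSH43 s_at set, both lower in 93-11. Over all probe sets 10.4% were apart and lower and 1.47% apart and higher. Scaled, 4 of the 7 were apart, the same 2 lower and OSH71 and OSH45 higher, against 8.02% lower and 6.55% higher over all.

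The replicates of these genes did not spread alike. Within cultivars the pooled SD of scaled log2 signals was 0.12 for OSH71 and 0.26 for OSH45, beside a median of 0.20 over the 7215 probe sets of similar signal. It was 0.12 for the OSH1 at set and 0.16 for the OSH1 x_at set, beside a median of 0.13. The OSH43 s_at set, at 0.22, varied less than most probe sets of its signal, whose median was 0.42, and OSH3, at 0.33, more than the median of 0.26.

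**Figure D3:**
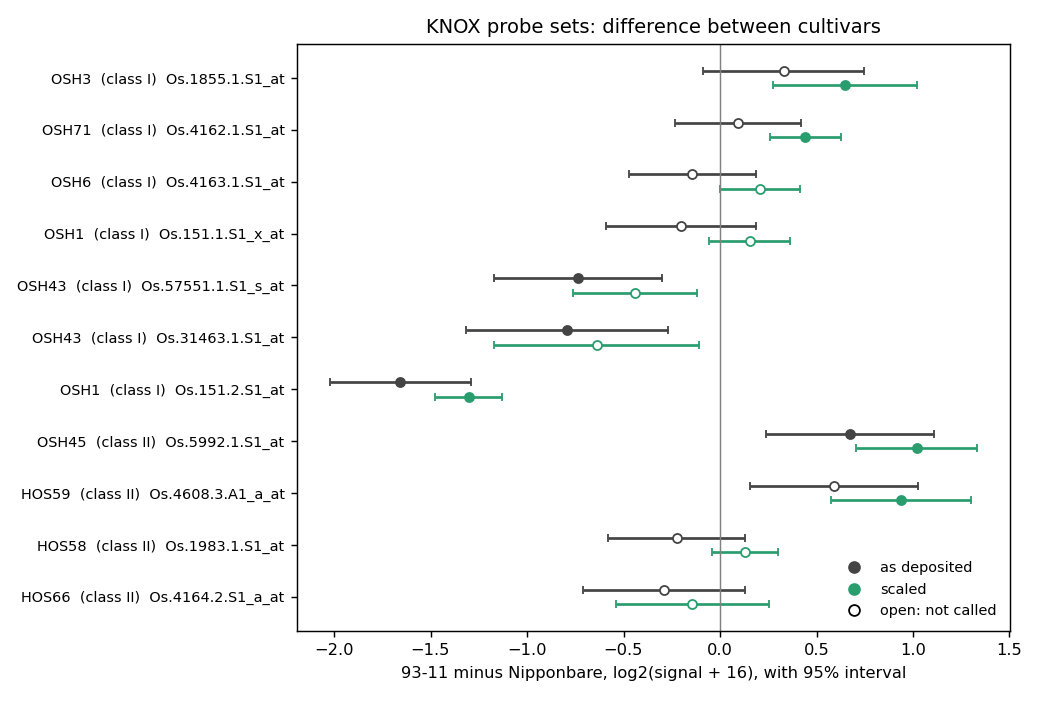
Difference between cultivars of all 11 KNOX probe sets, 93-11 minus Nipponbare on the log2(signal + 16) scale with its 95% interval, as deposited (grey) and scaled (green), with filled points where called. The OSH1 at set has the lowest difference, at -1.66 and -1.30, and its intervals slightly overlap those of the OSH43 at set. OSH45 and HOS59 of class II have the highest differences on both scales, and OSH3 of class I has the next highest.

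The other KNOX genes with a probe set were OSH6 of class I and HOS58, HOS59 and HOS66 of class II. HOS59 moved with OSH45 on scaled values: its mean was 417 ± 106 in Nipponbare and 634 ± 144 in 93-11 (SD, n = 5), and its difference was 0.59 (SE 0.20, limma adjusted p = 0.0716) as deposited and 0.94 (SE 0.17, limma adjusted p = 0.00128) scaled, without overlap on scaled values. HOS58, a strong class II gene at 3353 ± 668 and 2842 ± 401 (SD, n = 5), was called on neither scale, at -0.23 and 0.13. OSH6 was called on neither scale, at -0.14 and 0.21, and HOS66 was weak and not called. Over all KNOX probe sets, class I then had 0 higher and 3 lower of 7 as deposited and 2 higher and 1 lower scaled. Class II had 1 higher and 0 lower of 4 as deposited and 2 higher and 0 lower scaled, so the rise of OSH45 and HOS59 was not found in every class II gene.

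Class I and class II were also compared within arrays, through the ratio of each class I signal to the OSH45 signal, which is free of the array level. The ratio of the OSH1 at set to OSH45 was 15.7 ± 1.92 in Nipponbare and 3.06 ± 0.568 in 93-11 (SD, n = 5), without overlap. That of the OSH1 x_at set was 13.8 ± 0.726 and 7.41 ± 0.924 (SD, n = 5), also without overlap, although this probe set itself was not called. Both OSH1 probe sets thus stood lower against OSH45 in 93-11, by different amounts.

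For the OSH43 s_at set the ratio to OSH45 was 0.251 to 0.441 in Nipponbare and 0.0725 to 0.172 in 93-11, without overlap. For OSH71 it was 2.44 ± 0.257 and 1.64 ± 0.445 (SD, n = 5), with overlap, because 93-11 replicate 3 at 2.30 lay within the Nipponbare range. For OSH3 it was 0.360 ± 0.0806 and 0.291 ± 0.0809 (SD, n = 5), with overlap.

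In the fit of these ratios 5 of the 6 class I probe sets were called lower against OSH45 in 93-11, 0 were called higher, and OSH3 was not called (-0.34, 95% interval -0.83 to 0.14, limma adjusted p = 0.165). The OSH3 ratio was called lower without 93-11 replicate 3. Relative to OSH45, 85.0% of all probe sets were called lower and 0.723% higher. Every ratio shares the same OSH45 values, so these calls are not particular to class I. The fit also pools its variance over these ratios as if they were independent, though all carry the spread of OSH45 on the same arrays. Its intervals, adjusted p-values and shares called can therefore overstate the certainty. HOS59, the other class II gene that was higher after scaling, was not called against OSH45 (-0.08, 95% interval -0.51 to 0.34, limma adjusted p = 0.705). The other class II genes were called lower against it, HOS58 at -0.90 (limma adjusted p = 7.73e-05, without overlap) and HOS66 at -0.96 (limma adjusted p = 0.00284, with overlap), as far as the OSH1 x_at set at -0.88.

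Genes that act with KNOX proteins were taken from lists by pathway. YABBY genes and repressors of KNOX genes, taken as 1 list, had 9 probe sets, with 0 called higher and 2 lower as deposited (median difference -0.47) and 1 higher and 1 lower scaled (median -0.12). RS2, the rice counterpart of the maize repressor that keeps KNOX genes off in leaf primordia, was called lower by 1 of its 2 probe sets, at 543 ± 251 and 208 ± 55.0 (SD, n = 5) and -1.23 (SE 0.29, limma adjusted p = 0.00752), and stayed called scaled. Its other and stronger probe set was not called, at -0.35 (limma adjusted p = 0.199). OsYAB2 was called lower as deposited, at -0.68 (SE 0.17, limma adjusted p = 0.0118), and not called scaled.

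Of the 5 meristem probe sets, 1 was called higher and 1 lower as deposited, and 2 higher and 0 lower scaled, with medians of 0.21 and 0.44. RFL, the rice counterpart of LEAFY, was higher in 93-11 at 691 ± 211 and 1095 ± 215 (SD, n = 5) and 0.68 (SE 0.20, limma adjusted p = 0.0375), and it stayed called scaled, at 1.03. FON1, a receptor kinase that limits the size of the floral meristem, was called lower as deposited, at -0.89 (SE 0.23, limma adjusted p = 0.0147), and not scaled, at -0.55 (limma adjusted p = 0.0616).

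Of 13 cytokinin probe sets, 1 was called higher and 1 lower as deposited, and 2 higher and 1 lower scaled, with medians of -0.08 and 0.04. RR6, a type-A response regulator that dampens cytokinin signaling, fell from 928 to 1461 in Nipponbare to 374 to 708 in 93-11, at -1.15 (SE 0.18, limma adjusted p = 2.70e-04). LOGL1, related to the enzyme that releases active cytokinin, rose from 239 to 341 in Nipponbare to 370 to 551 in 93-11, at 0.73 (SE 0.16, limma adjusted p = 0.00528). The cultivars did not overlap in either gene, on either scale.

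Of 5 gibberellin probe sets, 0 were called as deposited and 1 was called higher scaled, that of the gibberellin receptor GID1 at 0.38 (limma adjusted p = 0.0123), with medians of -0.22 and 0.12. The second and weak GID1 probe set had the opposite sign, at -0.60 as deposited and -0.38 scaled, and was called on neither scale (limma adjusted p = 0.0985 and 0.211). SLR1, the repressor of gibberellin responses, was called on neither scale. Of 5 brassinosteroid probe sets, 1 was called higher and 1 lower as deposited and 2 higher and 1 lower scaled, with medians of -0.21 and 0.14. The called genes as deposited encode enzymes that inactivate brassinosteroids, and in rice OSH1 is known to bind and activate such genes. CYP734A4 was higher in 93-11, at 89.6 ± 22.5 and 191 ± 20.8 (SD, n = 5) and 0.99 (SE 0.19, limma adjusted p = 0.00157). CYP734A6 was lower, at 495 ± 188 and 268 ± 44.0 (SD, n = 5) and -0.79 (SE 0.22, limma adjusted p = 0.0267). Both stayed called scaled, in opposite directions. No name in the list of BELL proteins, the partners of KNOX proteins, was matched to a probe set.

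**Figure D4:**
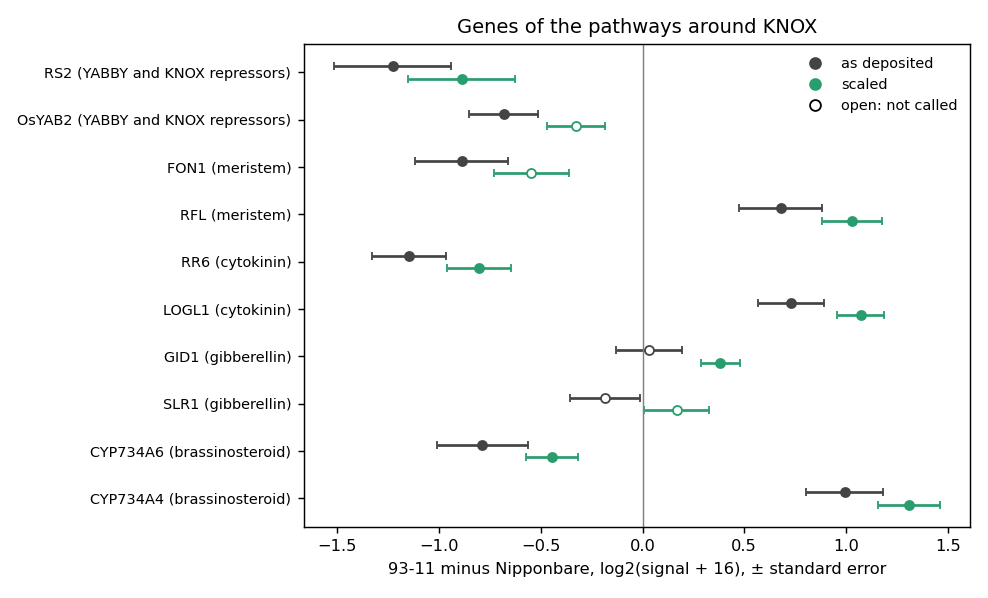
Difference between cultivars of the named genes around KNOX, 93-11 minus Nipponbare on the log2(signal + 16) scale with its standard error, as deposited (grey) and scaled (green), with filled points where called. RR6 and CYP734A6 lie below 0 and LOGL1 and CYP734A4 above 0 on both scales. Genes of both directions appear because up to 2 called each way were chosen.

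Profiles over the 10 arrays were compared by the root mean square difference of centred scaled log2 signals, as a description. The genes nearest to each member were taken from 64 candidate probe sets only. The candidates were limited to probe sets whose annotated gene symbol is not a locus number, so genes such as HOS59 were not ranked. A nearer profile among genes outside the candidates is therefore not excluded. For the OSH1 x_at set the nearest were all 3 probe sets of AIP1, at 0.107 to 0.113, against a median of 0.227 over the candidates. For OSH71 they were KIN14H, AIP1 and atpI at 0.153 to 0.184, and for OSH43 CPK23, NCL1 and TGAL4 at 0.193 to 0.207. For OSH3 they were RTFL3, TGA2.2 and wsl8 at 0.293 to 0.313. For OSH45 they were TGA2.2, KIN14H and CPK24 at 0.349 to 0.418, against a median of 0.565.

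Markers of other tissues differed between the cultivars beside these results. The young panicle and floral meristem list, with MADS genes and RFL, was strong in both cultivars for 14 of 15 probe sets, with 1 called higher and 1 lower as deposited, 2 higher and 0 lower scaled, and a summed signal of 34241 to 50719 in Nipponbare and 27570 to 37325 in 93-11. Over all probe sets 11.9% were called lower in 93-11 as deposited and 9.21% scaled. Of 4 anther probe sets 3 were called lower in 93-11 on both scales, MEL1, GAMYB and TDR, with a summed signal of 6277 to 11559 and 2877 to 5626. TDR was weak, at 24.1 to 100 in Nipponbare and 2.67 to 43.2 in 93-11, and its cultivars overlapped on both scales. Of 11 green leaf probe sets 7 were called lower on both scales, and 0 higher as deposited and 1 higher scaled, with a summed signal of 12264 to 20420 and 587 to 2679, most of it from CAB2R, and the 4 RBCS sets were weak in both cultivars. The 7 belong to CAB2R, RCA and PSAH only, so several are sets of the same gene, and the RCA sets were weak. Of 6 floral organ sets 0 were called higher and 3 lower as deposited, and 1 higher and 2 lower scaled. Of 13 endosperm sets, of which only GLB1 was strong, 0 were called as deposited and 1, of GLUA2, was called higher scaled. The root marker QHB was weak and not called. The 3′ to 5′ ratio of actin was 2.74 to 4.84 and highest on both arrays numbered 5. That of EF-1-alpha was 0.0207 to 2.92, of GAPDH 0.836 to 59.6 and of cyclophilin 2.79 to 3.58, each highest on an array with another number. Without both arrays numbered 5, OSH45 was not called as deposited (0.53, limma adjusted p = 0.107), as also without any of 7 single arrays. On scaled values OSH45 stayed called without both arrays numbered 5 (0.97, limma adjusted p = 9.51e-04). The part of these markers and of RNA quality in the KNOX differences was not tested.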

How the data were processed

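Young panicle RNA of 5 Nipponbare and 5 93-11 samples was hybridized singly to the 1-colour Affymetrix GeneChip rice array. The values the authors deposited are linear intensities, 1 for a probe set on an array, from GCOS 1.3 according to the submitters' processing notes. Neither the probe summary nor any scaling is given in the sources used here. No detection calls were used. Of 57381 probe sets, 123 controls were left out. The platform annotation and RefSeq's genes of assembly ASM3414082v1 paired 22436 probe sets with 1 gene, 95 with several and 34727 with none. The coordinates of this table are not printed, since the build behind the array is not named.

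In R 4.3.3, limma 3.58.1 was run on log2(signal + 16), using lmFit and eBayes with trend and no block, two-sided, with Benjamini-Hochberg adjustment over all rice probe sets and a threshold of 0.05. Pairs of probe sets of the same gene (5962) and ratios to OSH45 (57257) were fitted alike. Scaling set the mean of each array, trimmed by 2% at each end, to a common value. Alternatives were 1 or 64 added, quantile normalization, only mean log10 signals above 2.0, no trend, the replicate number as a block, both arrays numbered 5 left out, and each array left out in turn. The same refits on scaled values were added after seeing the data. A strong probe set has a mean log10 signal above 2.5. The fits of probe sets and of pairs were run on simulated data, and that of the ratios to OSH45 was not. The simulated noise was independent, without a shared array level or pairing of replicates, so the effect of these on the fits was not tested.

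All member probe sets are named, with up to 2 called genes of each other list in each direction, or the 2 of highest signal where none was called, and the 3 nearest profiles. Other genes of a list are named where a count turns on them. The members and lists were chosen with earlier results of these data known. Python 3.11.15, numpy 2.4.6, pandas 2.3.3 and matplotlib 3.10.9 were used.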

Additional observations from a re-analysis of the deposited data

Results flagged for a closer look

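The deposited OSH45 signal of Nipponbare replicate 2 stood apart from the other 4 Nipponbare arrays: its log2(signal + 16) was 9.07 and theirs were 8.15 to 8.41, a gap of 0.716 of the range of the group, above the critical value of 0.71 for 5 arrays. This was 1 of 32 groups examined, and chance flags about 1 in 20. This array also had the highest trimmed mean of the 10, 377, and on scaled values its OSH45 signal did not stand apart. Without it the deposited OSH45 difference was 0.83 (limma adjusted p = 0.00417).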

How the results depend on the processing

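Among the 7 probe sets, the 2 pairs and the ratios to OSH45, no called difference turned its direction under any alternative; for the genes of the lists only counts were run. The OSH1 at set, the unequal OSH1 pair and the OSH1, OSH43 and OSH71 ratios to OSH45 were called under each alternative run for them. The calls of the 7 probe sets were 1 higher and 3 lower as deposited, 3 higher and 1 lower after scaling and also after quantile normalization. Only mean log10 signals above 2.0 left 1 called lower, since both OSH43 sets are then not tested, and leaving out both arrays numbered 5 left 0 higher. Leaving out each array in turn gave 0 to 1 higher and 1 to 3 lower. The pathway lists with the KNOX genes that are not members (OSH6, HOS58, HOS59 and HOS66) had 3 higher and 5 lower as deposited, 9 higher and 3 lower scaled, 9 higher after quantile normalization, and 8 lower among signals above 2.0. Leaving out each array in turn gave 4 to 8 lower, with 8 without Nipponbare replicate 5, and on scaled values 1 to 2 lower, with 1 without Nipponbare replicate 2 or 4. With 1 added instead of 16 the OSH43 pair changed by 0.74 (SE 0.44) and with 64 by -0.17 (SE 0.14), called under neither. The cause of these shifts was not tested.

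Samples with the same replicate number deviated together for some numbers only (correlations of 0.03, 0.01, -0.05, 0.46 and 0.46 for numbers 1 to 5). Arrays numbered 4 and 5 correlated best with their own number in both cultivars, and those numbered 1 to 3 did not. The numbers thus pair the samples in part, for a reason that was not tested, and the main fit leaves this out. With the replicate number as a block, the OSH1 pair changed by 1.46 and the OSH43 pair by 0.06 as in the fit without it, the 7 probe sets had 1 called higher and 2 lower, and the call lost was that of the OSH43 at set (limma adjusted p = 0.0676). The pathway lists had 3 higher and 5 lower, and the ratios to OSH45 had 5 lower. Signals of OSH3 and OSH43 lie below the log10 threshold of 2.5, which makes their differences less certain. Those of OSH1 and OSH71 come from stronger signals, but the OSH1 difference depended on the probe set and the OSH71 call on the scale.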
